A study of Mus musculus with 8 samples.

Results

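Pik3ap1 encodes the B cell adaptor for phosphoinositide 3-kinase (PI3K), and it was described here with 8 further genes of the same signalling route, Phlpp1, Pik3cd, Pik3cg, Pik3r1, Inpp5d, Akt1, Akt2 and Pdpk1. Pik3ap1 was picked for its higher level in Jak2V617F cells, so its difference between the genotypes is given as a description with no test. The other 8 were chosen by function, as PI3K, Akt and phosphatase genes, in a list drawn up with earlier results of these data known. All 9 were measured, among 18193 genes in all. Each gene was represented by the probe set (the group of probes that reads 1 transcript region) with the highest mean over all arrays, and its other probe sets served as a check.

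The cells were haematopoietic stem and progenitor cells sorted from C57BL/6 mice, and are called LSK cells for the gate (low for lineage markers, with Sca1 and a high level of cKit). There were 4 arrays from mice heterozygous for the activating Jak2 mutation JAK2V617F and 4 from wild type mice, 1 mouse each by the labels. The comparison asked what a physiological level of the mutant kinase does in stem and progenitor cells. The mice's ages, the way the mutant allele was made and any Cre driver are not known here, since the labels and design text do not state them. Values were log2 intensities, every difference is Jak2V617F minus wild type on that scale, and a gene was called when its limma p, adjusted over all genes, was under 0.05.

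PI3K is a lipid kinase made of a catalytic and a regulatory subunit. Activated cytokine receptors, among them those that signal through Jak2, recruit it to the membrane through adaptor proteins, where it makes the lipid PIP3. PIP3 draws the kinase Akt to the membrane, Pdpk1 phosphorylates it there, and Akt then promotes survival and growth and holds the FoxO transcription factors out of the nucleus. Phosphatases oppose the route at the lipid (Inpp5d) and at Akt itself (Phlpp1). In blood stem cells the route is known for its part in balancing quiescence against proliferation.

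The promoter windows of Pik3ap1 and Phlpp1 are shown because these genes had the largest positive and the largest negative difference of the 9. The windows run from 250 bases before to 50 bases after the annotated start site, are from RefSeq on build GRCm38.p6, and were found for all 9 genes. Pik3ap1 lies on the minus strand with its window at chr19:41385053-41385352, and Phlpp1 on the plus strand with its window at chr1:106171619-106171918. Capitals mark matches to 4 motifs searched on both strands, TTCNNNGAA (the core bound by Stat factors), CACGTG (the E-box core), GTAAACA (the FoxO core) and GGGCGG (the GC box).
Pik3ap1: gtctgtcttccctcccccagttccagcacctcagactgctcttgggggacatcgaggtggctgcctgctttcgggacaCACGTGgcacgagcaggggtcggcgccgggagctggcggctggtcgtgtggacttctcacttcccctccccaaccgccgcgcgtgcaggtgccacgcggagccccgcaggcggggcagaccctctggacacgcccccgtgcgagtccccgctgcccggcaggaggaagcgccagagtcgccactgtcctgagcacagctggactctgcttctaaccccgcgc
Phlpp1: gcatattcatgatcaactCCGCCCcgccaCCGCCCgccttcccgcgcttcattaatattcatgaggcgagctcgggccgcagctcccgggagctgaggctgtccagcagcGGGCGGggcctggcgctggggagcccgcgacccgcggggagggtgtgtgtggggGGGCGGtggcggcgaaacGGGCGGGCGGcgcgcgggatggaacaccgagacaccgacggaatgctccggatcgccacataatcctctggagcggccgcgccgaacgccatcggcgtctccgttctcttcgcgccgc
The Pik3ap1 window held 1 CACGTG, which starts 172 bases before the start site, and none of the other motifs. CACGTG was present in 7.15% of all 32851 promoter windows. The Phlpp1 window held 6 GC boxes, of which 2 overlap each other, and none of the other motifs, and 35.7% of all windows held at least 1 GC box. At least 1 window of Pik3cd, Pik3r1, Akt1, Akt2 and Pdpk1 also held GC boxes, and no window of Pik3cg or Inpp5d did. TTCNNNGAA was found in 1 of the 4 windows of Akt2 and in 1 of the 2 windows of Pdpk1, and in no window of the other members. It was present in 8.3% of all windows. GTAAACA was found in 1 of the 2 windows of Pik3cg and in 1 of the 2 windows of Akt1, and in no window of the other members. It was present in 3.65% of all windows. These genes are named because a window held a match, so their shares are not comparable with those of all windows. A match describes the letters of the window and does not show binding.

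Over all genes, 30 were called, which is 0.165%, with 19 higher (0.104%) and 11 lower (0.0605%). Pairwise correlations between arrays lay between 0.991 and 0.995, and array medians between 7.06 and 7.15. Jak2 itself was at 12.39, 12.46, 12.64 and 12.25 in the Jak2V617F arrays, against 12.67, 12.65, 12.65 and 12.56 in the wild type arrays, and was not called (-0.20 ± 0.089, SE; limma adjusted p = 0.294). The other Jak2 probe set differed by -0.019 (limma adjusted p = 0.948 over all probe sets). The Jak2 probe sets are not known here to tell the alleles apart, so they do not check the labels. Jak2V617F array 3 and wild type arrays 1 and 2 had female expression (Xist high and Y-linked genes low), and the other 5 had male expression. Y-linked genes read up to 5.37 in the arrays with female expression, and this is called the level of absent transcript. Xist read from 5.54 to 6.54 in the arrays with male expression, so an absent transcript can also read above 5.37. Every chosen probe set of the 9 genes read above both. Kit, which defines the sort, was at 12.67 ± 0.099 in Jak2V617F and 12.65 ± 0.14 in wild type arrays (SD, n = 4 each). Among the other markers, the stem cell surface gene Slamf1 averaged 9.79 ± 0.43 in Jak2V617F and 9.07 ± 0.44 in wild type arrays with overlap (SD, n = 4 each; limma adjusted p = 0.225), and Cd34 was lower in every Jak2V617F array, at 13.93 ± 0.047 in Jak2V617F and 14.04 ± 0.022 in wild type arrays (SD, n = 4 each; limma adjusted p = 0.350). The mean of the 6 measured LSK markers lay between 11.98 and 12.28 in Jak2V617F arrays and between 11.87 and 12.13 in wild type arrays.

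Pik3ap1, the adaptor that links immune receptors and Toll-like receptors to PI3K, had log2 intensities of 10.72, 10.94, 10.78 and 10.67 in the Jak2V617F arrays, against 8.97, 8.71, 9.003 and 8.97 in the wild type arrays. The lowest Jak2V617F array, at 10.67, lay above the highest wild type array, at 9.003. The means were 10.78 ± 0.12 in Jak2V617F and 8.91 ± 0.13 in wild type cells (SD, n = 4 each), a difference of 1.86 ± 0.092 (SE) or 3.64-fold. It ranked 8 among all 18193 genes by size of rise. Among the 5 arrays with male expression, 3 Jak2V617F and 2 wild type, the difference was 1.79 ± 0.11 (SE).

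The gene's other probe set did not show this difference. It read 8.32, 8.88, 8.40 and 8.66 in the Jak2V617F arrays, against 8.39, 8.36, 8.33 and 8.42 in the wild type arrays, so the genotypes overlapped. Its difference was 0.19 ± 0.12 (SE), and the mean of both probe sets differed by 1.03 ± 0.092 (SE). On this probe set Jak2V617F arrays 2 and 4 lay above all wild type arrays, array 3 within their range and array 1 below them. The probe set with the large difference is annotated to the sequence BI684288 and the other to NM_031376. Which part of the transcript each reads is not given in the tables used here, so the 3.64-fold difference stands for the region that 1 probe set reads.

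**Figure D1:**
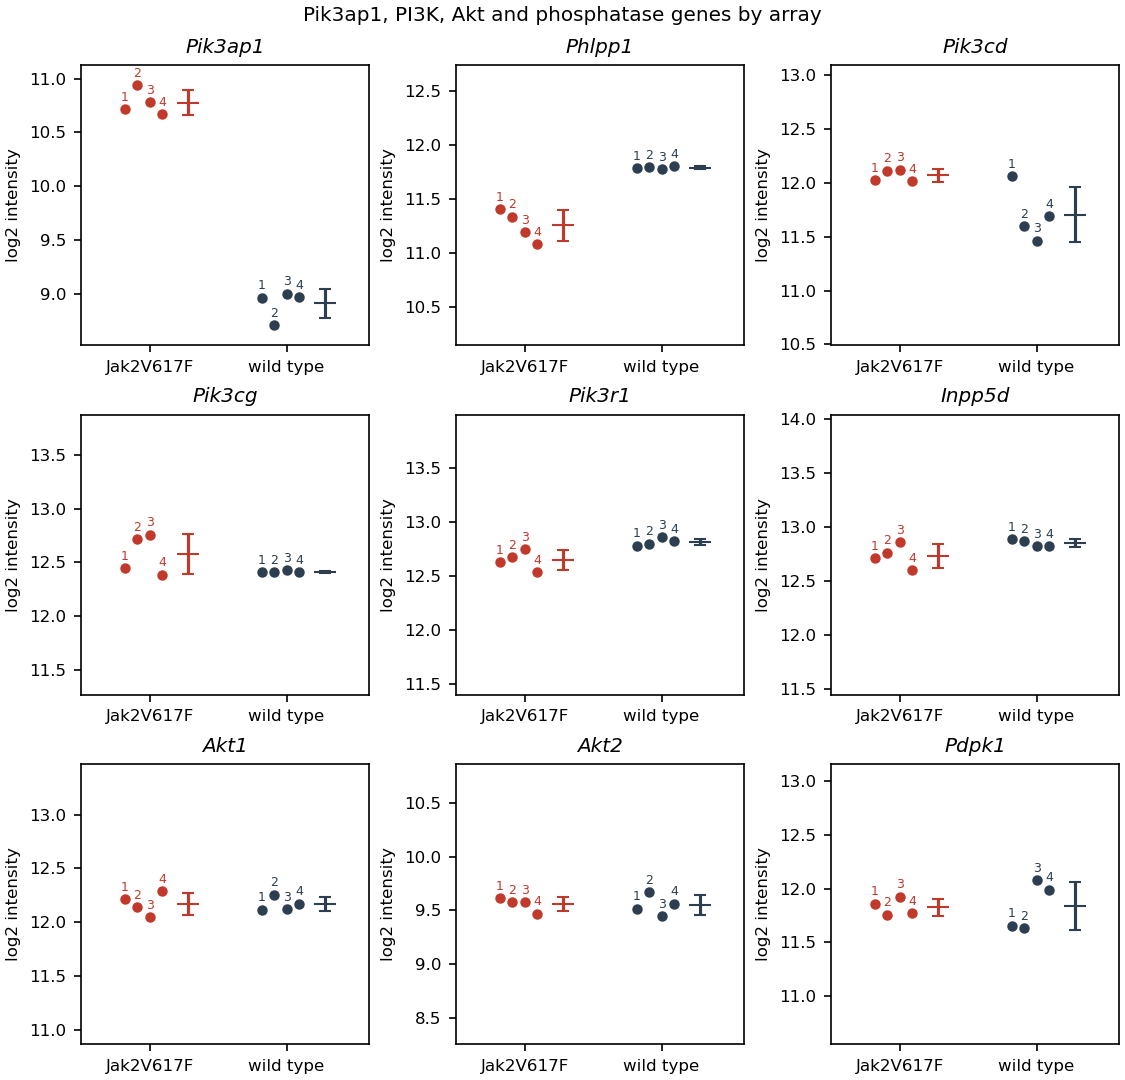
Log2 intensity of each of the 9 genes (y axis, a span of 2.6 log2 units in every panel) in the 4 Jak2V617F arrays (left, red) and the 4 wild type arrays (right, dark), with array numbers beside the points and the mean ± SD to their right. Pik3ap1 is apart by 1.86, Phlpp1 lies lower in all Jak2V617F arrays, and Akt1, Akt2 and Pdpk1 overlap.

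Pik3ap1 lies at chr19:41272541-41385102 (GRCm38.p6), on the chromosome that carries Jak2 (chr19:29251803-29313095), with 12.0 Mb between their starts. The 3 measured genes on each side of it were not called. On the lower-coordinate side, the myelin gene Opalin differed by 0.22 (limma adjusted p = 0.231), the metalloprotease gene Tll2 by 0.018 with its mean below the level of absent transcript in both genotypes (4.64 in Jak2V617F and 4.62 in wild type arrays), and the membrane protein gene Tm9sf3 by -0.0035. On the other side, the corepressor gene Lcor was lower in every Jak2V617F array (-0.28 ± 0.090, SE; limma adjusted p = 0.196), the guidance factor gene Slit1 differed by 0.051 and Arhgap19 by 0.24 (limma adjusted p = 0.407). The neighbours' differences thus ran from -0.28 to 0.24, against 1.86 for Pik3ap1. Pik3ap1 was picked for its rise and the neighbours were not, so this gap is a description only.

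**Figure D2:**
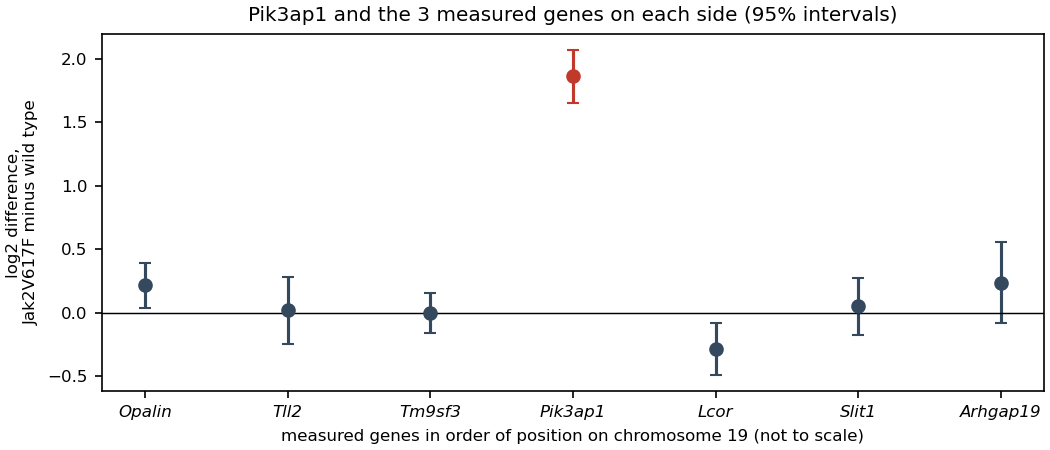
Log2 difference, Jak2V617F minus wild type (y axis), of Pik3ap1 (red) and the 3 measured genes on each side of it in their order on chromosome 19 (x axis, not to scale), with 95% intervals from limma. Pik3ap1, which was picked for its rise, stands at 1.86 and its neighbours lie between -0.28 and 0.24.

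The genes whose array values were most like those of Pik3ap1 were, by Pearson's r over the 8 arrays, Adi1 (0.993), D730005E14Rik (0.978), Mocs3 (0.976), Tbc1d23 (0.974) and Nfs1 (0.973). Adi1 encodes a dioxygenase of methionine salvage, Mocs3 an enzyme of molybdenum cofactor synthesis, and Nfs1 the cysteine desulfurase that supplies iron-sulfur clusters. All 5, which were picked for this r, lay higher in every Jak2V617F array, as did 6.82% of all genes. Their differences were 0.63 for Adi1, 0.69 for D730005E14Rik, 0.75 for Mocs3, 0.48 for Tbc1d23 and 0.35 for Nfs1. The genotypes form separate clusters on Pik3ap1, so this r mostly reflects the genotype difference. With each array taken as its deviation from its genotype's mean, r with Pik3ap1 was 0.43 for Adi1, 0.74 for D730005E14Rik, -0.31 for Mocs3, 0.68 for Tbc1d23 and 0.25 for Nfs1.

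Of the other 8 genes 0 passed limma's test, against 0.165% of all genes called. With no adjustment 3 of the 8 had a limma p under 0.05, 1 higher and 2 lower, against 17.2% of all genes. The arrays of the genotypes did not overlap for 2 of the 8, both lower, against 3.33% of all genes lower without overlap and 6.82% higher. Their median difference was -0.0020, beside 0.054 over all genes.

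Phlpp1, whose protein dephosphorylates Akt, read 11.41, 11.33, 11.19 and 11.08 in the Jak2V617F arrays, against 11.79, 11.80, 11.77 and 11.80 in the wild type arrays. All Jak2V617F arrays lay below the wild type arrays, which were close to each other. The means were 11.25 ± 0.14 in Jak2V617F and 11.79 ± 0.012 in wild type cells (SD, n = 4 each). The difference of -0.54 ± 0.082 (SE), 1.45-fold lower, had a limma adjusted p of 0.0553 and so did not pass. It passed in 3 of 17 alternatives, with dim genes left out (limma adjusted p = 0.0392), with probe sets averaged per gene (0.0408) and with a trended robust prior (0.0218). In these 3 the values and the difference of Phlpp1 were unchanged, and only its error and the adjustment over all genes differed. Over all 17 the limma adjusted p ran from 0.0218 to 0.171. Phlpp1 lies at chr1:106171869-106394245 and has 1 probe set, so no further one could be compared.

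Inpp5d, the lipid phosphatase SHIP-1 of blood cells, was not called. It read 12.71, 12.76, 12.86 and 12.60 in the Jak2V617F arrays, against 12.89, 12.87, 12.82 and 12.82 in the wild type arrays. Jak2V617F array 3 fell inside the wild type range and the other 3 lay below it. The difference was -0.12 with a 95% interval from -0.28 to 0.046 (limma adjusted p = 0.417), and the other probe set differed by 0.13, in the opposite direction.

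Of the catalytic subunits, Pik3cd, the delta isoform of leukocytes, read 12.02, 12.11, 12.12 and 12.02 in the Jak2V617F arrays, against 12.06, 11.60, 11.46 and 11.69 in the wild type arrays. Wild type array 1 lay within the Jak2V617F range and the other 3 lay below it. The difference was 0.37 with a 95% interval from 0.094 to 0.64 and was not called (limma adjusted p = 0.205). Without wild type array 1 it was 0.49, and among the arrays with male expression 0.47 (limma adjusted p = 0.165).

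Pik3cd had 6 probe sets, the most of the 9 genes. The probe set 1422991_at read 7.88, 7.83, 8.05 and 7.64 in the Jak2V617F arrays, against 7.49, 7.35, 7.25 and 7.25 in the wild type arrays, and these did not overlap. Its difference was 0.52 ± 0.10 (SE; limma adjusted p = 0.0821 over all probe sets). The probe set 1422992_s_at differed by 0.29 ± 0.099 (SE; limma adjusted p = 0.202), 1446770_at by -0.044, and the last 2 read below the level of absent transcript in every array.

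Pik3cg, the gamma isoform that acts below G protein-coupled receptors, had 2 probe sets that differed in opposite directions although both are annotated to the sequence BB205102. The chosen one read 12.45, 12.72, 12.76 and 12.39 in the Jak2V617F arrays, against 12.41, 12.41, 12.43 and 12.41 in the wild type arrays, and the genotypes overlapped. Its difference was 0.16 with a 95% interval from -0.051 to 0.38 (limma adjusted p = 0.396). The other read 11.45, 11.45, 11.57 and 11.31 in the Jak2V617F arrays, against 11.85, 11.67, 11.78 and 11.70 in the wild type arrays, and all Jak2V617F arrays lay lower. Its difference was -0.31 ± 0.082 (SE; limma adjusted p = 0.139 over all probe sets). The gene's direction therefore depended on the probe set.

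Pik3r1, the regulatory subunit that binds phosphorylated receptors and adaptors and stabilises the catalytic subunit, read 12.63, 12.68, 12.75 and 12.54 in the Jak2V617F arrays, against 12.78, 12.80, 12.86 and 12.82 in the wild type arrays. The genotypes did not overlap, and the difference was small, -0.17 with a 95% interval from -0.32 to -0.013, and not called (limma adjusted p = 0.262). Its other 3 probe sets lay on the same side, at -0.21, -0.12 and -0.085. Of these, the first also had all Jak2V617F arrays below all wild type arrays.

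None of the 3 kinases downstream was called at its chosen probe set (limma). Akt1, the widely expressed Akt isoform, read 12.21, 12.14, 12.05 and 12.29 in the Jak2V617F arrays, against 12.12, 12.26, 12.12 and 12.17 in the wild type arrays, a difference of 0.0065 with a 95% interval from -0.16 to 0.18 (limma adjusted p = 0.972). Akt2, the isoform best known from insulin signalling, read 9.61, 9.58, 9.58 and 9.47 in the Jak2V617F arrays, against 9.52, 9.67, 9.44 and 9.56 in the wild type arrays, a difference of 0.011 with a 95% interval from -0.15 to 0.18 (limma adjusted p = 0.949). For both, the Jak2V617F and wild type ranges overlapped. With its 4 probe sets averaged, Akt1 differed by 0.20 ± 0.080 (SE; limma adjusted p = 0.256).

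Some other probe sets of both Akt genes had all Jak2V617F arrays above all wild type arrays. Akt1 probe set 1425711_a_at read 10.31, 10.15, 10.04 and 10.25 in the Jak2V617F arrays, against 9.94, 9.95, 9.79 and 9.94 in the wild type arrays (0.28 ± 0.084, SE; limma adjusted p = 0.170 over all probe sets). Akt1 probe set 1442759_at differed by 0.33 ± 0.094 (SE; limma adjusted p = 0.159), also without overlap, and 1440950_at by 0.18 with overlap. Akt2 probe set 1421324_a_at read 8.62, 8.63, 8.76 and 8.70 in the Jak2V617F arrays, against 8.41, 8.36, 8.26 and 8.53 in the wild type arrays (0.29 ± 0.082, SE; limma adjusted p = 0.151), and 1455703_at differed by -0.064. None of these probe sets passed the test.

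Pdpk1, the kinase that activates Akt, read 11.86, 11.76, 11.93 and 11.77 in the Jak2V617F arrays, against 11.65, 11.63, 12.08 and 11.99 in the wild type arrays. The wild type arrays with female expression were the 2 low ones and those with male expression the 2 high ones, while the Jak2V617F array with female expression was the highest of its group. The difference over all 8 arrays was -0.010 with a 95% interval from -0.27 to 0.25 (limma adjusted p = 0.970), and it was -0.24 among the arrays with male expression (limma adjusted p = 0.276). The second probe set read 10.80, 10.75, 10.73 and 10.61 in the Jak2V617F arrays, against 10.94, 10.86, 11.11 and 10.93 in the wild type arrays, with all Jak2V617F arrays lower (-0.24 ± 0.081, SE; limma adjusted p = 0.201 over all probe sets).

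Over the 24 probe sets of the 8 genes other than Pik3ap1, 0 were called (limma over all probe sets, where 0.172% were called), and 11 had an unadjusted p under 0.05, against 17% of all probe sets. The genotypes did not overlap for 9 of the 24, 4 higher and 5 lower and from 7 of the 8 genes, against 10.1% of all probe sets. Probe sets of 1 gene share their transcript and are not independent, and the genes were listed with earlier results known. Jak2V617F array 4 was the lowest of its group for 7 of the 9 genes, and it was the lowest for 23.6% of all genes. Jak2V617F array 3 was the highest of its group for 5 of the 9, and for 29.4% of all genes.

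**Figure D3:**
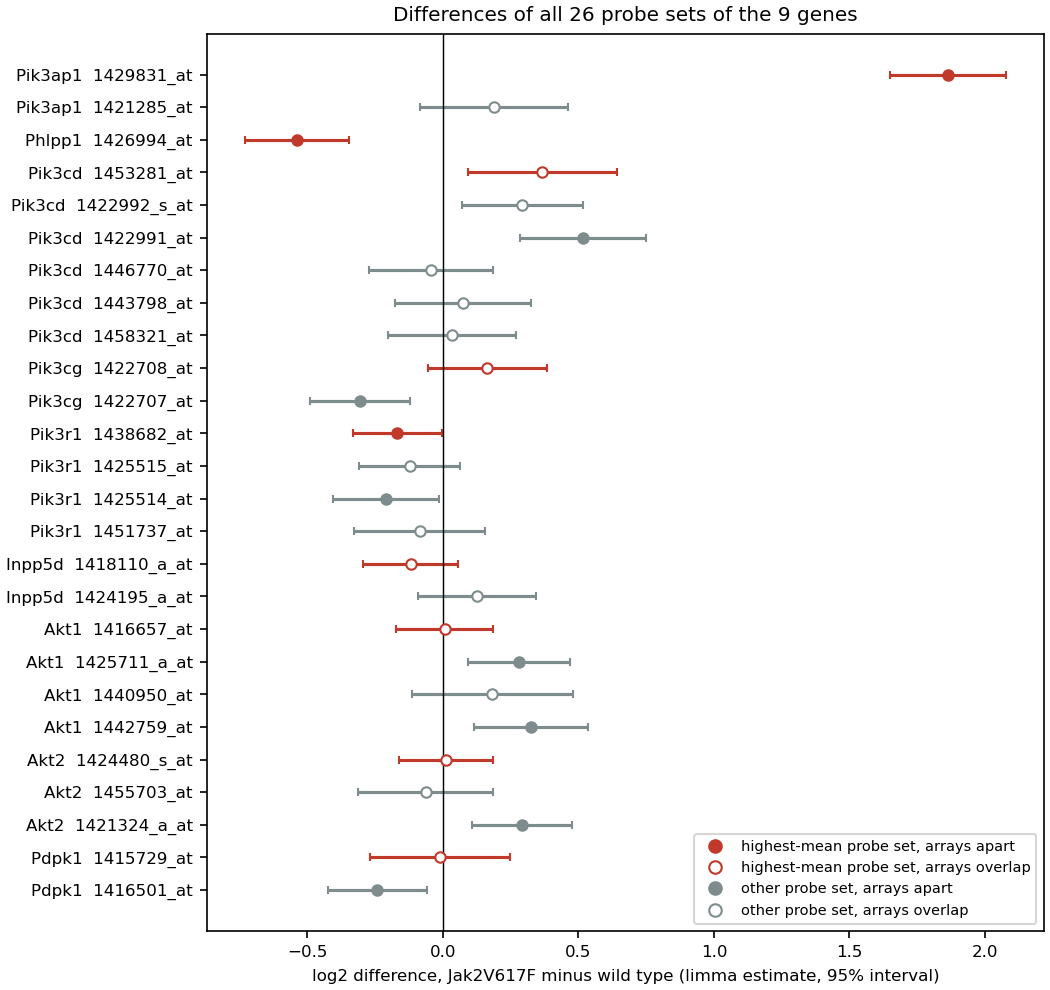
Log2 difference, Jak2V617F minus wild type (x axis), of each of the 26 probe sets of the 9 genes (y axis), with 95% intervals from limma over all probe sets. Red marks the probe set with the highest mean of its gene and grey the others, and filled points have no overlap between the genotypes' arrays. The 2 probe sets of Pik3ap1 stand at 1.86 and 0.19, and those of Pik3cg on opposite sides of 0.

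Markers of other cell types were measured beside these values, since Pik3ap1 is also expressed in mature B, myeloid and natural killer cells. In sorted populations, fewer cells of a type and less RNA per cell cannot be told apart. Of 7 measured B cell markers 4 lay above 0. Their mean was between 6.93 and 7.09 in Jak2V617F arrays and between 6.88 and 7.04 in wild type arrays. Ms4a1 was below the level of absent transcript in all arrays. The means of Cd79a (6.49 in Jak2V617F and 6.51 in wild type) and Pax5 (6.21 and 6.14) lay within the range of Xist in arrays with male expression. Those of Cd79b and Vpreb1 lay above that range. Ebf1 differed by 0.12 with overlap, with means of 5.56 in Jak2V617F and 5.44 in wild type arrays, near the level of absent transcript. Cd22 was higher in every Jak2V617F array (0.40, limma adjusted p = 0.242). Its means, 5.35 in Jak2V617F and 4.95 in wild type arrays, lay below that level. All 8 macrophage and dendritic cell markers lay above 0. Their mean was between 9.64 and 10.19 in Jak2V617F arrays, against 9.10 to 9.50 in wild type arrays. None of them was below the level of absent transcript throughout. In wild type arrays the means of Adgre1 (6.30) and C1qa (6.41) lay within the Xist range, and those of the other markers above it. Of the 8, 4 had an unadjusted limma p under 0.05, all higher, against 11.9% of all genes. They were Adgre1 (0.62), Cd68 (0.44), Cd74 (1.18) and H2-Ab1 (0.50), and of these only Cd74 overlapped between the genotypes.

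Granulocyte and monocyte markers lay above 0 in 6 of 7, with a mean between 12.70 and 13.47 in Jak2V617F arrays, against 12.09 to 12.98 in wild type arrays. Erythroid markers lay above 0 in 5 of 5, between 8.90 and 10.09 in Jak2V617F arrays and between 7.72 and 8.61 in wild type arrays, and megakaryocyte markers in 6 of 6, between 9.25 and 9.99 in Jak2V617F arrays and between 9.19 and 9.66 in wild type arrays. Markers of T and natural killer cells lay above 0 in 4 of 6, between 7.56 and 7.86 in Jak2V617F arrays and between 7.60 and 7.77 in wild type arrays. Of all 45 markers 0 were called (limma), against 0.165% of all genes. An unadjusted p under 0.05 was found for 15, against 17.2% of all genes, and 14 of these were higher, against 11.9% of all genes. They were 4 of 5 erythroid, 4 of 8 macrophage and dendritic cell, 2 of 6 megakaryocyte and 2 of 6 T and natural killer cell markers. The B cell (of 7), granulocyte and monocyte (of 7) and LSK (of 6) markers had 1 each. The erythroid ones were Slc4a1 (2.32, without overlap) and, with overlap, Hbb-b2 (1.67), Alas2 (1.52) and Epor (0.55). Alas2 averaged 5.54 in wild type arrays, near the level of absent transcript. Over all genes, 62.6% lay above 0. The part of these cell types in the difference of Pik3ap1 was not tested.

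The wider PI3K and Akt pathway held 41 further measured genes, from other catalytic and regulatory subunits to the mTOR complexes and FoxO factors, and 0 of them were called (limma), against 0.165% of all genes. An unadjusted p under 0.05 was found for 6, 3 higher and 3 lower, against 11.9% of all genes higher and 5.23% lower. The list ran from -0.37 to 0.62 with a median of 0.044, close to the 0.054 of all genes. The catalytic subunit gene Pik3ca read 11.93, 12.09, 12.03 and 11.89 in the Jak2V617F arrays, against 12.21, 12.20, 12.34 and 12.16 in the wild type arrays (-0.25 ± 0.074, SE; limma adjusted p = 0.186). The regulatory subunit gene Pik3r2 read 9.01, 8.81, 8.65 and 8.90 in the Jak2V617F arrays, against 8.60, 8.60, 8.47 and 8.58 in the wild type arrays (0.28 ± 0.087, SE; limma adjusted p = 0.194). Neither pair of groups overlapped. Mapkap1, a subunit of the mTOR complex that phosphorylates Akt, differed by 0.25 (limma adjusted p = 0.230) and Pik3c2a, a class II PI3K gene, by -0.24 (limma adjusted p = 0.250).

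Of 17 measured genes listed for the receptor side of PI3K, mostly receptors and adaptors, 0 were called (limma), against 0.165% of all genes. An unadjusted p under 0.05 was found for 1 higher and 1 lower, against 11.9% and 5.23% of all genes. There were 6 above 0 and 11 below, where 62.6% of all genes lay above 0, and the median was -0.044. Irs2, an insulin receptor substrate, read 7.29, 7.40, 7.62 and 7.24 in the Jak2V617F arrays, against 7.18, 6.56, 7.17 and 6.93 in the wild type arrays, without overlap (0.43 ± 0.15, SE; limma adjusted p = 0.220). Irs1, the 1 lower gene, was below the level of absent transcript in both genotypes, with means of 4.35 in Jak2V617F and 4.77 in wild type arrays. Bank1, a scaffold of B cells related in structure to Pik3ap1, differed by -0.62 ± 0.28 with overlap (SE, limma adjusted p = 0.302). Its means, 5.66 in Jak2V617F and 6.28 in wild type arrays, lay near the level of absent transcript. Its sign is therefore not set against that of Pik3ap1. Tyrobp, a transmembrane adaptor of myeloid and natural killer cells, differed by 0.28 (limma adjusted p = 0.332).

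Of 12 measured kinases and effectors that bind PIP3 or act beside those that do, 0 were called (limma), against 0.165% of all genes, and 1 higher and 1 lower had an unadjusted p under 0.05, against 11.9% and 5.23% of all genes. Above 0 lay 6 and below it 6, where 62.6% of all genes lay above, and the median was -0.012. Btk, a PIP3-binding tyrosine kinase, read 13.07, 13.18, 13.22 and 13.08 in the Jak2V617F arrays, against 12.94, 12.70, 12.79 and 13.05 in the wild type arrays, and the groups did not overlap (0.27 ± 0.089, SE; limma adjusted p = 0.205). Its relative Tec differed by 0.19 (limma adjusted p = 0.296). Plekha2, a PIP-binding adaptor gene, was lower in all Jak2V617F arrays (-0.21 ± 0.068, SE; limma adjusted p = 0.196), and the Rac exchange factor gene Prex1 differed by -0.17 (limma adjusted p = 0.338).

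FoxO targets report on Akt activity only indirectly, and most answer to other factors too. Of 26 measured members 0 were called (limma), against 0.165% of all genes, and 1 higher and 2 lower had an unadjusted p under 0.05, against 11.9% and 5.23% of all genes. There were 13 above 0 and 13 below, where 62.6% of all genes lay above 0, and they ran from -0.52 to 1.19 with a median of -0.0029. The pocket protein gene Rbl2 read 11.05, 11.35, 11.39 and 10.93 in the Jak2V617F arrays, against 11.55, 11.62, 11.63 and 11.59 in the wild type arrays, without overlap (-0.42 ± 0.11, SE; limma adjusted p = 0.138). The repressor gene Bcl6 read 10.09, 10.44, 10.76 and 10.36 in the Jak2V617F arrays, against 11.13, 11.02, 10.81 and 10.77 in the wild type arrays, again without overlap (-0.52 ± 0.14, SE; limma adjusted p = 0.160). The stress gene Gadd45a differed by 0.34 (limma adjusted p = 0.251) and the mitochondrial peroxidase gene Prdx3 by 0.16 (limma adjusted p = 0.293).

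**Figure D4:**
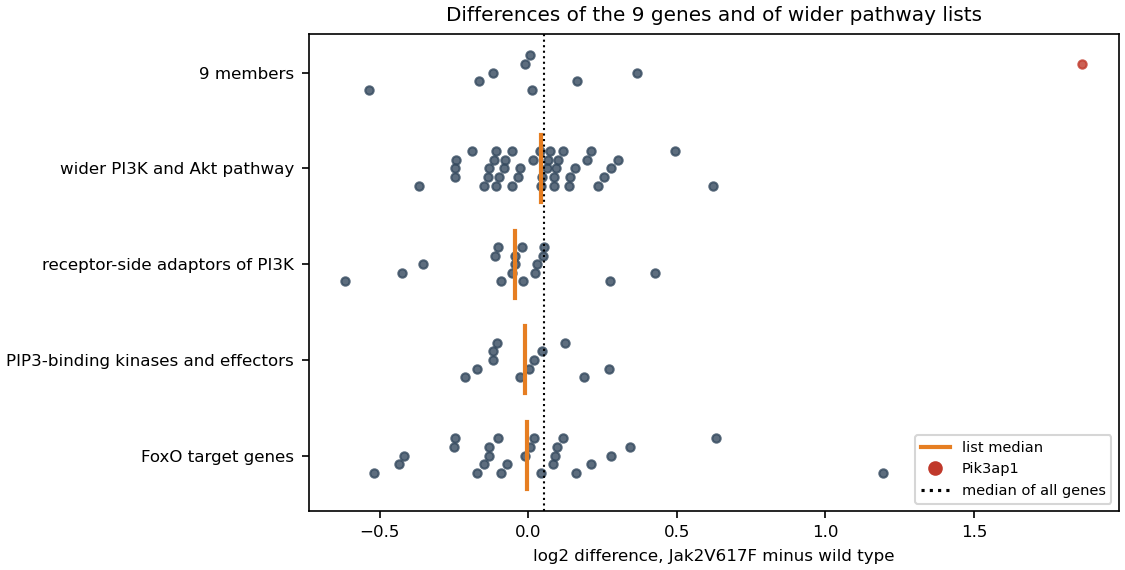
Log2 difference, Jak2V617F minus wild type (x axis), of the 9 genes and of each measured member of the 4 wider lists (rows), 1 point a gene, shifted vertically only to keep points apart. Pik3ap1 (red) lies at 1.86. The list medians (orange) are 0.044, -0.044, -0.012 and -0.0029, beside 0.054 for the median of all genes (dotted).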

How the data were processed

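RNA from the LSK cells of 8 mice underwent linear amplification and biotin labelling (NuGEN Ovation), per the labels' protocols, and was read on the Affymetrix Mouse Expression Array 430 2.0, per the series' design text. The authors deposited log2 intensities, with a column for each mouse. Per the submitters' processing notes RMA, affy and R 2.11.0 were used. RMA makes the arrays' distributions alike, which hides any shift shared by most transcripts. No source used here names the chip definition or genome build. Without scanner files or scan dates, which were not used here, batches could not be examined.

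Of 45101 probe sets, 64 controls were left out and 34945 had a single symbol in the platform annotation, which gave 18193 genes. Entrez identifiers matched RefSeq genes of GRCm38.p6 for 34741 probe sets, with 0 symbols changed. Genotypes were compared with limma 3.58.1 (lmFit, eBayes) in R 4.3.3, two-sided, without covariates, with Benjamini-Hochberg adjustment over all genes (over all probe sets where stated) at a threshold of 0.05. Code was tested on simulated data. The number of arrays limits precision. The labels describe separate mice.

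Members, gene lists, markers and the rule for named genes were chosen with earlier results of these data known. That rule took all 9 members with every probe set, Jak2, called genes of each list or otherwise its 4 smallest p, the 5 genes most correlated with Pik3ap1 and its 3 measured neighbours on each side. Kit, Cd34, Slamf1, Ms4a1, Cd79a, Cd79b, Pax5, Vpreb1, Adgre1 and C1qa fall outside it and were named after their values were seen. The same holds for Cd22, Ebf1, Cd68, Cd74, H2-Ab1, Slc4a1, Hbb-b2, Alas2 and Epor. List genes without a singly named probe set were not analysed here. Motifs were counted in RefSeq promoter windows. The alternatives tried were a block for replicate number, centring on array medians, leaving out dim genes, averaging each gene's probe sets, dropping those with names in _s_at, _x_at or _a_at, array weights, a robust trended prior, a sex covariate, leaving out each array and testing every probe set. Arrays with male expression alone were added after seeing the data. Same-numbered arrays of the genotypes did not deviate together (r of deviations from -0.22 to 0.10 over the 4 numbers), so the numbers were not taken to pair mice.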

Additional observations from a re-analysis of the deposited data

Results flagged for a closer look

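Of 52 groups of 4 arrays, formed by the 26 probe sets and both genotypes, 4 had an array far from the other 3, where chance gives about 1 in 20. For Pik3ap1, wild type array 2 read 8.71, with the nearest wild type array at 8.97, a gap of 0.876 of the group's range. For the chosen Pik3cg probe set, wild type array 3 read 12.43 with the nearest at 12.41 (0.920 of the range), in a group whose SD was 0.011. For Akt1 probe set 1425711_a_at, wild type array 3 read 9.79 with the nearest at 9.94 (0.920 of the range). For Akt2 probe set 1455703_at, wild type array 4 read 9.15 with the nearest at 8.95 (0.881 of the range). Without wild type array 2 the difference of Pik3ap1 was 1.80.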

How the results depend on the processing

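The difference of Pik3ap1 was above 0 in all 17 alternatives run for it. The gene was picked for its rise in these same arrays, so this count is given as a description. Its difference was 1.03 with probe sets averaged and 0.19 on the other probe set, and between 1.80 and 1.90 with each array left out. Of the 8 other genes 0 were called in 15 of 18 alternatives, and 1, Phlpp1, with dim genes left out, with probe sets averaged and with a trended robust prior. The wider pathway and FoxO lists had 0 called in all 18 alternatives. A block for the replicate number leaves every difference as it was by construction and changes only its error. With it, the SE of Pik3ap1 was 0.11, Phlpp1 had a limma adjusted p of 0.159, and 8 genes were called over all genes. The count of 30 called genes became 75 under a robust trended prior, 60 given a sex covariate, 53 on all probe sets, 49 when averaging probe sets, 47 once arrays were median-centred and 13 to 40 with each array left out. It was 19 without Jak2V617F array 1, 16 without array 2 and 14 without array 4, and 13 without wild type array 2 and 16 without array 3. Estimates near 0 changed sign, none of them called. Akt1 was -0.0059 with sex as a covariate and -0.033 to 0.049 with each array left out. Akt2 was -0.064 when probe sets named _s_at, _x_at or _a_at were dropped and -0.023 to 0.052 with each array left out. Pdpk1 was 0.034 after median centring, 0.0028 with array weights and -0.079 to 0.069 with each array left out. With probe sets averaged, Pik3cg was -0.072, Inpp5d 0.0039, Pdpk1 -0.13, Akt1 0.20 and Akt2 0.080. With 4 arrays a genotype precision is limited, and the 95% interval of Pik3cd, for example, ran from 0.094 to 0.64. The causes were not tested.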
